A study of Mus musculus with 27 samples.

Results

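The CXC chemokine ligands are described here in mouse calvarial cells over 9 time points of osteoblast differentiation. The 10 genes (Ppbp, Pf4, Cxcl1, Cxcl2, Cxcl5, Cxcl10, Cxcl12, Cxcl13, Cxcl14 and Cxcl16) are 10 of the 37991 genes quantified. They were selected on family membership by name and on their levels over the same days, so their profiles are given as a description, without a test. The cells came from calvariae of C57BL/6J-Col3.6 CFP neonates aged 5 to 9 days, in which a collagen type I promoter fragment (Col3.6) drives a cyan fluorescent protein. After 4 days of growth the fluorescent cells were sorted, replated and kept in ascorbic acid and β-glycerol phosphate, and RNA was taken every other day from day 2 to day 18. All groups share this strain, sort and medium and differ in the day alone. The promoter fragment marks pre-osteoblasts but does not make the culture a pure one, and the number of animals pooled is not given in the sources used here.

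CXC chemokines are small secreted proteins that guide migrating cells through G protein-coupled receptors. Those with a glutamate-leucine-arginine (ELR) motif ahead of the first cysteine, such as Ppbp, Cxcl1, Cxcl2, Cxcl3 and Cxcl5, act on Cxcr2 and attract neutrophils, and most are switched on by inflammatory NF-κB signals. Those without it include Pf4, a platelet granule protein also made by macrophages, the interferon-induced T cell attractants Cxcl9 and Cxcl10, and Cxcl12, which bone marrow stromal cells use to retain blood stem cells through Cxcr4.

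Each time point was represented by 3 profiles that carried 1 barcode and differed in sequencing lane. Over genes with whole-number counts they differed by little more than sampling noise (chi-square per degree of freedom 0.997 to 1.02), and they were counted as 1 sample. The paper describes triplicate samples at each time point, but the shared barcode and the small differences point to 1 library per day. No day was thus taken to have a replicate, and the SD among the 3 profiles was read as that of sequencing and quantification alone. The summed libraries held 22470195 (day 10) to 62009157 (day 12) estimated counts. Levels are in TPM, which scales counts by transcript length and library, after division by the upper quartile of each profile. Of 8 osteoblast markers, 5 rose with day and 0 fell, where 28.3% of all genes tested rose and 26.1% fell. The mature markers Bglap and Ibsp reached 208 and 78.4 TPM on day 18 from 1.24 and 0.581 TPM on day 2. The counts of Bglap were not whole numbers, so part of its reads may be shared with other genes. Col1a1, the main bone collagen gene, was at 1526 TPM or more on all 9 days. The other 3 markers did not pass the line in day and changed in the natural spline, which tests any change over the days. Sp7, an osteoblast transcription factor, had 32.3, 2.77 and 10.6 TPM on days 2, 8 and 18 (edgeR spline adjusted p = 1.16e-05). Spp1, which encodes osteopontin, was highest on day 6 at 1012 TPM and lowest on day 10 at 285 TPM (edgeR spline adjusted p = 0.000421). Alpl, the alkaline phosphatase gene, had 9.13, 0.467 and 17.6 TPM on days 2, 6 and 18 (edgeR spline adjusted p = 0.00742).

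The mixture of CXC ligand transcripts changed from one shared by several genes to one dominated by Cxcl12. In order from day 2 to day 18, the summed TPM of the 10 ligands was 115, 207, 183, 225, 419, 589, 571, 714 and 713. Cxcl12 made up 20.5% of that sum on day 2 and 25.0% on day 4. Its share reached 53.5% and 76.5% on days 6 and 8 and was 92.5% to 94.6% from day 10 on. Ppbp held 34.7%, 38.2% and 13.3% on days 2, 4 and 6, and was the most abundant of the 10 on days 2 and 4. Without Cxcl12 the sum went the other way, with its highest value of 156 TPM on day 4 and its lowest of 31.3 TPM on day 10.

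**Figure D1:**
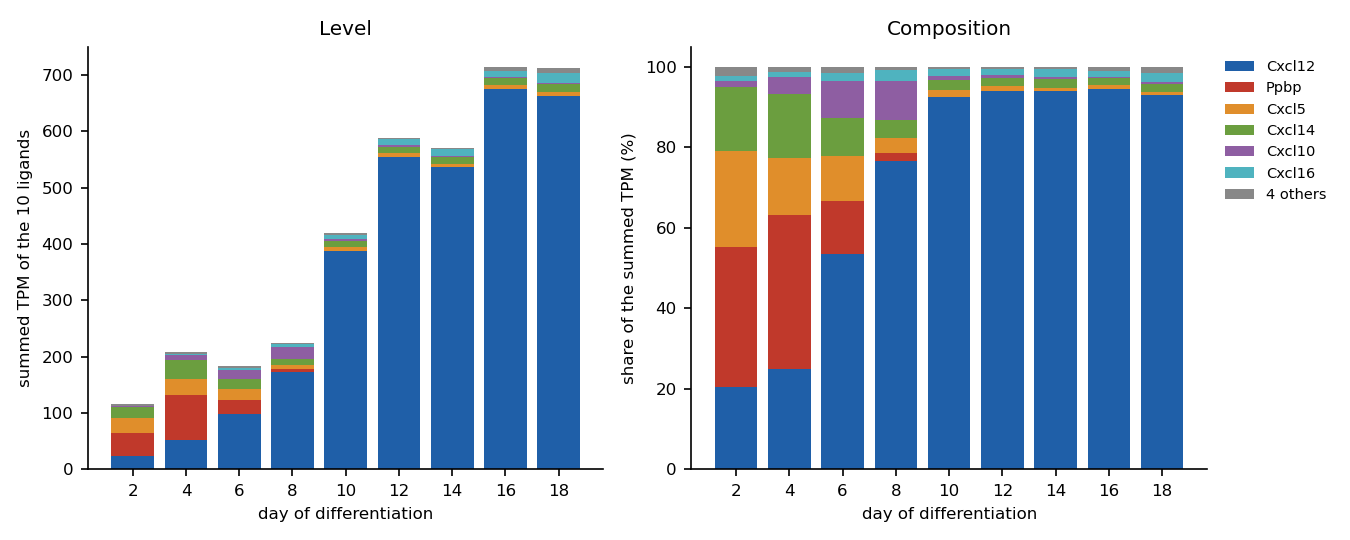
Stacked bars of the TPM of the 10 CXC ligands on each day of differentiation (left, in TPM; right, as a percent of the sum), with Cxcl1, Cxcl2, Cxcl13 and Pf4 joined as 4 others. The left bars grow from 115 to 713 TPM between days 2 and 18, and the share of Cxcl12 goes from 20.5% to 93.0%.

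Of the members, 5 lie together on chromosome 5 of NCBIM37, the build of the files. In order along the plus strand these are Cxcl5 (ENSMUSG00000029371, chr5:91188325-91190651), Ppbp (ENSMUSG00000029372, chr5:91197544-91199086), Pf4 (ENSMUSG00000029373, chr5:91201461-91202407), Cxcl1 (ENSMUSG00000029380, chr5:91320267-91322141) and Cxcl2 (ENSMUSG00000058427, chr5:91332897-91334935). The stretch from Cxcl5 to Cxcl2 spans 146611 bp and also holds Cxcl3 and Cxcl15. The members of this cluster did not share 1 profile. Ppbp, Cxcl5, Cxcl1 and Cxcl2 were higher early, and Pf4, which starts 2374 bp after the end of Ppbp, was higher late.

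Ppbp encodes pro-platelet basic protein, whose processed forms activate Cxcr2 on neutrophils and which is best known from platelet granules. From day 2 to day 18 its TPM ran 40.1, 79.3, 24.3, 4.87, 0.582, 0.104, 0.489, 0.283 and 0.515. All 3 early days (2 to 6) stood above all later days, and the 5 days from day 10 on were all under 1 TPM. The summed counts were 934, 1787, 569 and 80 on days 2, 4, 6 and 8, and 3 to 11 on the later days. Between its highest and its lowest day the share of counts differed 873-fold (95% exact interval 298 to 4238, day 4 against the 3 counts of day 12). Such intervals cover counting error only. The mean of days 2 to 6 was 112 times that of days 14 to 18. In the order of its levels, days 12, 16, 14, 18 and 10 could not be told from their neighbours by the range of their 3 profiles. The 4 days above them were separated from each other. In bulk RNA, fewer cells that make a transcript and less transcript per cell cannot be told apart.

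**Figure D2:**
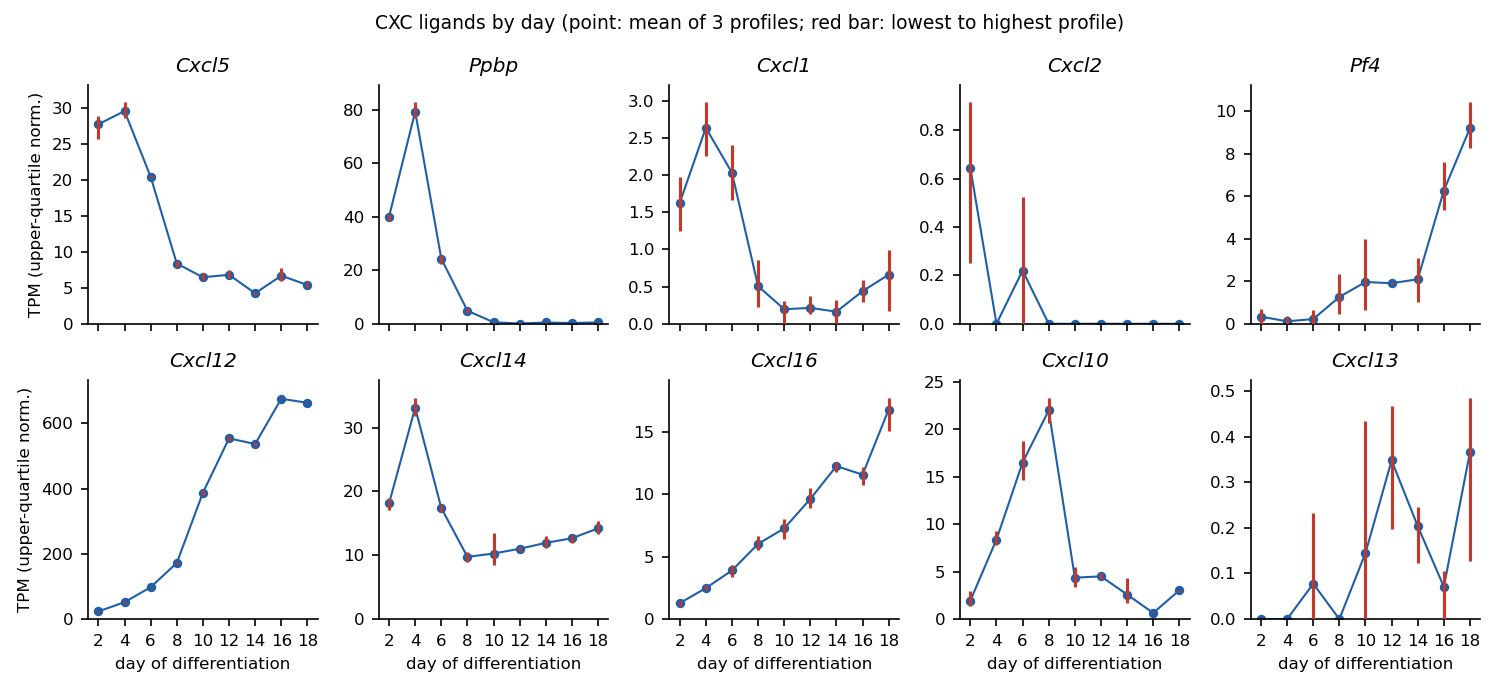
TPM after upper-quartile normalization for each of the 10 CXC ligands by day of differentiation, with the mean of 3 profiles as a point and their lowest to highest value as a red bar (linear axes from 0, scaled per gene). Ppbp, Cxcl1, Cxcl5 and Cxcl14 are highest on day 4 and Cxcl2 on day 2, Cxcl10 is highest on day 8, and Cxcl12, Cxcl16 and Pf4 are highest on day 16 or 18.

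The upstream neighbour Cxcl5 encodes another ELR ligand that draws neutrophils and is often made by stromal and epithelial cells. From day 2 to day 18 its TPM ran 27.7, 29.5, 20.4, 8.36, 6.46, 6.80, 4.23, 6.68 and 5.38. Like Ppbp it was high on days 2 to 6, but it did not go below 1 TPM, and its highest day exceeded its lowest 6.97-fold in TPM. Days 2 and 4 overlapped in the range of their profiles. Cxcl1, the mouse counterpart of the growth-related oncogene chemokines, was much lower, with a minimum of 0.163 TPM (day 14) and a maximum of 2.63 TPM (day 4). Its summed counts were 32, 50 and 40 on days 2, 4 and 6 and 2 to 12 from day 8 on, and the profiles of days 2 and 6, and of days 6 and 4, overlapped. Cxcl2, also known as macrophage inflammatory protein 2, had 15 counts (day 2), 5 counts (day 6) and 0 on the other 7 days. Pooled over days 2 to 6 this was 0.157 CPM (counts scaled to library size; 95% Wilson interval 0.101 to 0.242), and 15 of these 20 counts were from day 2. The 0 counts of days 8 to 18 allow up to 0.0118 CPM over the pooled libraries (3 counts of 254409346). Cxcl3, a close relative in the same cluster that was not among the members, had 33, 35 and 19 counts on days 2, 4 and 6, 2 counts on day 8, 3 on day 18 and 0 from day 10 to day 16. It fell with day (edgeR quasi-likelihood test, Benjamini-Hochberg adjusted p = 0.00528). Only days 2, 4 and 6, where Cxcl3 was high, carried it past the filter on low counts, so the direction of this call was largely set by the filter.

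The stretches below, from the RefSeq promoter windows of GRCm38.p6 and all on the plus strand, show what the low early ELR ligands have ahead of their start sites. Capitals mark matches on either strand to the κB letters GGNNTTTCC, which 5.82% of all 32851 windows of the same length contain. The first match lies 89 bases before the start for Cxcl1 (chr5:90891141-90891198), 96 for Cxcl2 (chr5:90903788-90903845) and 72 for Cxcl3 (chr5:90786014-90786052).
Cxcl1: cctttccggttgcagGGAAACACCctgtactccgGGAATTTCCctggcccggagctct
Cxcl2: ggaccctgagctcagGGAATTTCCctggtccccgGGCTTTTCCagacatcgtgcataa
Cxcl3: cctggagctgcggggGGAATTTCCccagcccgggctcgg

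The letters were not particular to the early ligands, since the windows of Cxcl10 and Cxcl9 also held them. The windows of Ppbp, Pf4, Cxcl12, Cxcl13 and Cxcl14 did not. Cxcl5 and Cxcl16 had no entry. The neighbours Ppbp and Pf4, whose levels went in opposite directions, are shown by the 120 bases before their starts (GRCm38.p6, plus strand, chr5:90768398-90768517 and chr5:90772315-90772434). Capitals mark TATAAA, which 13.6% of all windows contain on either strand. A match is a run of letters and does not show binding.
Ppbp: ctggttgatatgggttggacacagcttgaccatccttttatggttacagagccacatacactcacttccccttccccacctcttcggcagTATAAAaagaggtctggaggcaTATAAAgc
Pf4: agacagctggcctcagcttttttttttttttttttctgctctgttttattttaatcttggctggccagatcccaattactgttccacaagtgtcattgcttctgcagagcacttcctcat

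Pf4 encodes platelet factor 4, which lacks the ELR motif and binds heparin. Its summed counts were 3, 1 and 2 on days 2, 4 and 6, then 8, 9, 21, 18, 59 and 76 on days 8 to 18. In TPM it was at 0.334 or less on days 2 to 6 and at 2.09, 6.26 and 9.20 on days 14, 16 and 18, so that the early and late days did not overlap. From day 2 to day 14, neighbours in the order of its levels overlapped in the range of their profiles. Day 18 exceeded day 4 by 72.3-fold in CPM (95% exact interval 12.6 to 2893, from 76 against 1 count). Srgn, the granule proteoglycan that stores Pf4 in platelets and is also made by macrophages, rose from 0.0829 to 66.9 TPM (log2 slope, given throughout as the difference that the fitted line makes between days 2 and 18, 8.37 ± 0.80 SE, edgeR adjusted p = 4.14e-05). It was at 0.623 TPM or less on days 2 to 6. The later days largely carried it past the filter on low counts, which largely set the direction of this call.

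Markers of macrophages moved with Pf4. Of 9 such genes 8 rose and 0 fell, where 28.3% of all genes tested rose and 26.1% fell, and Cd14 did not pass (adjusted p = 0.129 from edgeR). This list was chosen with results of these data known and is no independent support. C1qa, at 0.2315 TPM or less on days 2 to 6, passed the filter largely through its later days. Their summed level was 24.3 to 63.7 TPM on days 2 to 6 and 540 to 2091 TPM on days 14 to 18. Most of this sum came from Lyz2 alone, at 19.9 TPM on day 2 and 1855 TPM on day 18. No marker was at 0 counts throughout. Adgre1, the F4/80 antigen, went from 0.0704 to 17.2 TPM between days 2 and 18. Markers of megakaryocytes and platelets were low but not absent. Of 12 genes, 8 stayed under 1 TPM on all days, Gata1 and Gp6 had 0 counts in all libraries, and none of the 5 that could be tested passed the line in day in either direction. With the spline 1 of the 5 changed, Vwf (adjusted p = 0.0292 from edgeR). Their summed level was 3.97 to 6.48 TPM early and 7.02 to 11.6 TPM late, most of it from Itga2b, Vwf, Nfe2 and Gp1bb. Itga2b was at 1.91 to 6.38 TPM, highest on day 18 in TPM but not in counts. It had 70 counts on day 6 and 54 on day 18, in libraries of similar depth, and its line in day did not pass (adjusted p = 0.781 from edgeR). On day 4, when Ppbp had 1787 counts, the markers with the most counts were Vwf, Gp1bb and Itga2b with 75.1, 43.0 and 32 counts. Neutrophil markers (8 genes, 0 tested) summed to at most 0.612 TPM early and 2.00 TPM late. The part of macrophages or megakaryocytes in the profiles of Pf4 and Ppbp was not tested.

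**Figure D3:**
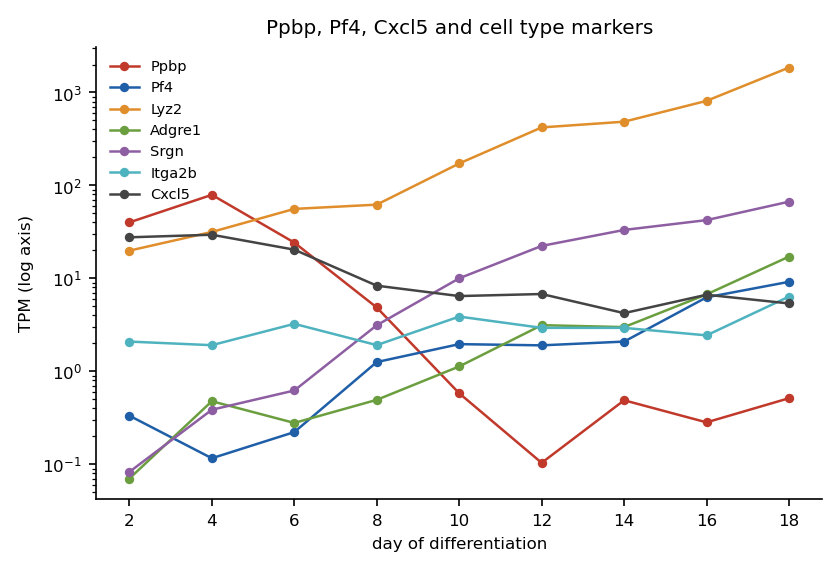
TPM by day of differentiation on a log axis for Ppbp, its neighbours Pf4 and Cxcl5, the macrophage markers Lyz2 and Adgre1, Srgn, and the megakaryocyte marker Itga2b. Ppbp goes from 79.3 to 0.104 TPM between days 4 and 12, and Pf4, Srgn and both macrophage markers have their highest values on day 18.

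Cxcl12 (ENSMUSG00000061353, NCBIM37 chr6:117118553-117131385, plus strand), also called stromal cell-derived factor 1, was the most abundant ligand from day 6 on. From day 2 to day 18 its TPM ran 23.6, 51.8, 97.8, 172, 388, 554, 537, 676 and 663. The SD over 3 profiles was at most 8.62 TPM, and no 2 neighbouring days in the order of levels overlapped in the range of their profiles. Day 18 exceeded day 2 by 21.7-fold in CPM (95% exact interval 20.7 to 22.8). After upper-quartile scaling the order of the days was not quite that of time, since day 14 was below day 12 and day 18 below day 16. The order of days 12 and 14 depended on the scaling. Day 14 was above day 12 in TPM as deposited (527.1 against 499.8) and in CPM (715.3 against 705.5). Day 18 stayed below day 16 on both scales.

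Its receptors took other courses. Cxcr4, the signalling receptor, had 18 counts on day 2 and 0 to 4 counts on every later day, and did not pass the filter on low counts. Ackr3, an atypical receptor that scavenges Cxcl12, was detected at 5.62 to 12.6 TPM. It averaged 11.6 TPM on days 2 to 6 and 7.79 TPM on days 14 to 18, and its slope did not pass (log2 slope -0.48 ± 0.26 SE, edgeR adjusted p = 0.140). With the 27 profiles entered as separate samples it was -0.49 in both fits, with adjusted p = 0.00531 without and 0.00708 with the replicate block from edgeR. Dpp4, a peptidase that inactivates Cxcl12, stayed between 0.143 and 2.57 TPM with no slope past the test (adjusted p = 0.418 from edgeR).

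Cxcl14 (ENSMUSG00000021508, NCBIM37 chr13:56390008-56397912, minus strand), a ligand of skin and stroma, had TPM values of 18.1, 33.1, 17.4, 9.75, 10.3, 11.0, 11.9, 12.7 and 14.2 from day 2 to day 18. Day 4 stood above all other days, and the later days went from 9.75 up to 14.2 TPM, and its highest value was only 3.40 times its lowest. Days 8 to 16 overlapped with their neighbours in the range of the profiles.

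Cxcl16 and its receptor Cxcr6 went in opposite directions. Cxcl16 (ENSMUSG00000018920, NCBIM37 chr11:70267485-70273486, minus strand) is made as a membrane-bound ligand that also takes up oxidized lipoprotein. From day 2 to day 18 its TPM ran 1.27, 2.48, 3.90, 6.02, 7.26, 9.62, 12.2, 11.6 and 16.8. Every late day was above every early day. Its total of 2677 counts was the only one among the members that was not a whole number, and it overlaps Zmynd15 (211 counts in all) on the other strand, so a small part of its reads may be shared. Macrophage markers (values given beside Pf4) and adipocyte markers climbed over the same days as Cxcl12 and Cxcl16. All 5 adipocyte markers rose, where 28.3% of all genes tested rose, and their sum was 3.21 to 7.44 TPM early and 188 to 407 TPM late. Of these, Adipoq, Plin1 and Cfd were at 0.244 TPM or less on days 2 to 6. Their later days largely carried them past the filter on low counts, so the direction of these calls was largely set by the filter. The part of either cell type in these ligands' profiles was not tested. Cxcr6, best known from T cells, had 988, 690, 328 and 58 counts on days 2 to 8 and 1 to 15 counts on days 10 to 18. In TPM it went from 21.0 on day 2 to 15.2, 6.96 and 1.76 on days 4, 6 and 8, and was 0.259 or less after that. It fell (log2 slope -9.77 ± 0.89 SE, edgeR adjusted p = 3.37e-05), with 988 counts on day 2 against 1 on day 18, a 1039-fold CPM ratio with a 95% exact interval of 186 to 41080. The gene lies within Fyco1, on the opposite strand, and its counts were whole numbers. All 3 early days stood above all 3 late days. The T cell markers Cd3e and Cd3g had 0 counts in all libraries.

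**Figure D4:**
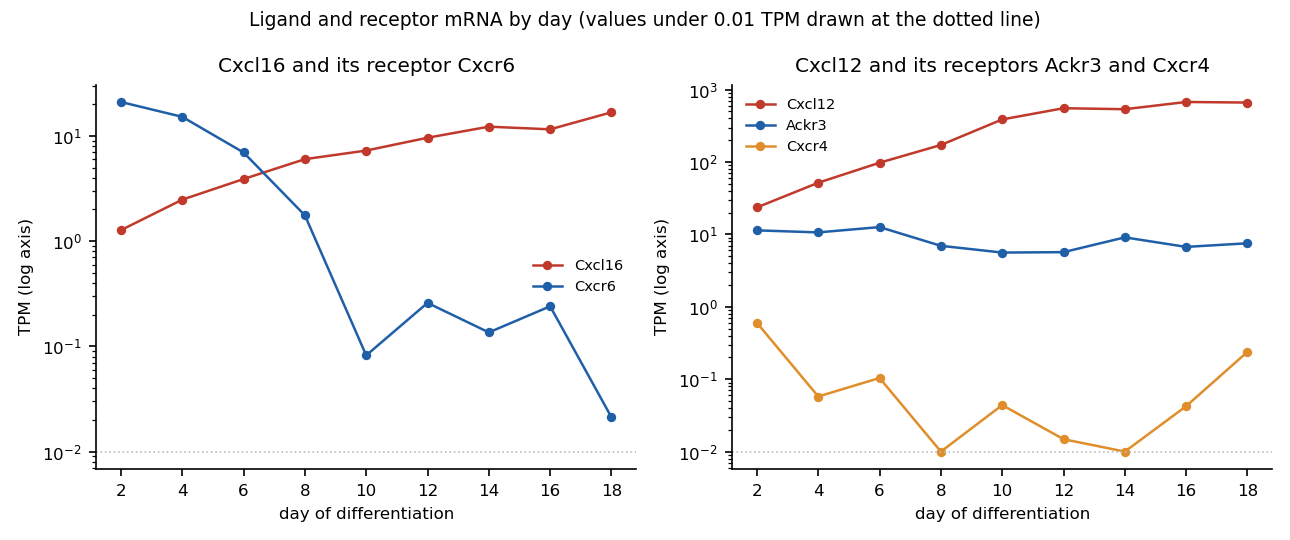
TPM on a log axis by day of differentiation for Cxcl16 and Cxcr6 (left) and for Cxcl12, Ackr3 and Cxcr4 (right), with values under 0.01 TPM drawn at the dotted line. Cxcl16 and Cxcr6 cross between day 6 and day 8, and Cxcl12 climbs while Cxcr4 stays at 0.601 TPM or less.

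The proteases that release Cxcl16 from the membrane were both present. Between days 2 and 18 Adam17 rose from 57.0 to 78.3 TPM (log2 slope 0.46 ± 0.14 SE, edgeR adjusted p = 0.0149). Adam10 ranged from 34.1 to 50.4 TPM and its line in day did not pass (adjusted p = 0.327 from edgeR), although the spline did (adjusted p = 0.0084 from edgeR).

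Cxcl10 (ENSMUSG00000034855, NCBIM37 chr5:92775664-92777915, minus strand), which attracts activated T cells through Cxcr3, peaked in the middle of the series. From day 2 to day 18 its TPM ran 1.95, 8.39, 16.5, 22.0, 4.36, 4.50, 2.59, 0.644 and 3.03. Days 6 and 8 were above all others. In CPM, day 8 exceeded day 2 by 11.3-fold (95% exact interval 8.32 to 15.8) and day 16 by 38.9-fold (95% exact interval 23.6 to 68.8). The gene lies within Art3, on the opposite strand, and its counts were whole numbers. Its promoter window holds the interferon-response letters AAANNGAAA, in capitals below, 212 bases before the start. Of all windows 10.6% contain these letters on either strand, and among the members with an entry Cxcl14 was the other one that did. The stretch is RefSeq GRCm38.p6 chr5:92349078-92349116, minus strand.
Cxcl10: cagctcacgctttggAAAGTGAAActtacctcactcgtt

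The interferon list, which like the ligands was chosen with results of these data known and is no independent support, included many genes with a peak in the middle of the series. Of 16 genes 14 could be tested, and 13 of them changed over the days in the natural spline, against 57.5% of the 16256 genes tested in that fit. Of these 13, 9 were highest on day 8 and 10 were lowest on day 2. Isg15, an interferon-induced ubiquitin-like protein, had 4.97, 306 and 26.7 TPM on days 2, 8 and 18 (spline adjusted p = 2.65e-06 from edgeR). Ifit1, which binds foreign RNA, went from 3.53 to 216 and 33.3 TPM on the same days (spline adjusted p = 3.59e-07 from edgeR). Irf7, a factor that amplifies the response, went from 1.56 to 32.3 and 7.30 TPM (spline adjusted p = 5.29e-07 from edgeR). The straight line missed these genes, and 2 of the 14, the receptor genes Ifnar1 and Ifnar2, passed it, both rising. Transcripts of the interferons on the list were close to absent, with Ifng at 0.0382 TPM on day 2 and Ifnb1 at 0.101 TPM on day 8 as their highest values.

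**Figure D5:**
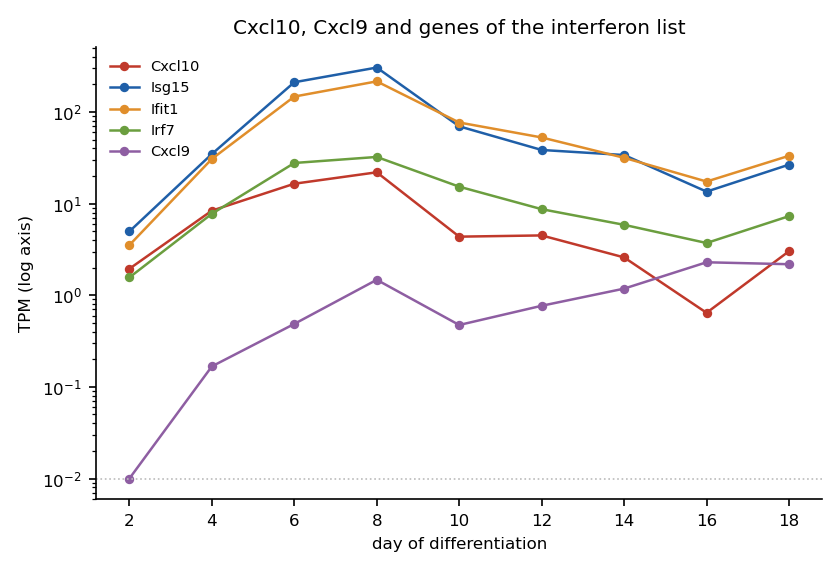
TPM on a log axis by day of differentiation for Cxcl10, Cxcl9 and the interferon-list genes Isg15, Ifit1 and Irf7, with values at 0 drawn at the dotted line. All but Cxcl9 are highest on day 8, when Cxcl10 is at 22.0 TPM, whereas Cxcl9 is highest on day 16.

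Cxcl9 lies near Cxcl10 on the same chromosome and is likewise known as an interferon target, but its course differed in part. Its counts from day 2 to day 18 were 0, 11, 36, 76, 18, 67, 79, 181 and 152, and it rose with day (adjusted p = 0.013 from edgeR). In TPM it shared a local high on day 8, with 0.487, 1.48 and 0.474 on days 6, 8 and 10. Its highest value came later, at 2.29 TPM on day 16. Cxcr3, the receptor of both ligands, had 0 to 6 counts up to day 16 and 22 on day 18. Cxcl13 (ENSMUSG00000023078, NCBIM37 chr5:96385945-96390086, plus strand), the B cell attractant of lymphoid follicles, was barely detectable, with 0 to 11 counts per day and at most 0.366 TPM. Its receptor Cxcr5 had 0 to 5 counts per day. Ackr4, an atypical receptor known mainly for CC chemokines, rose between days 2 and 18, from 4.61 to 27.3 TPM (log2 slope 2.93 ± 0.31 SE, edgeR adjusted p = 6.78e-05). That gene overlaps Acad11 on the other strand. It also overlaps a second entry of the same gene on its own strand, with 106 counts in all, which was left out. The counts of Ackr4 were not whole numbers, so this value is uncertain.

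Over the pathway outside the 10 ligands, few genes were measured well enough to test. Of 5 other CXC ligands 2 were tested, with Cxcl9 rising and Cxcl3, which passed the filter through its early days alone, falling. Cxcl11, Cxcl15 and Cxcl17 stayed under 1 TPM. Of 9 receptors 4 were tested, with Ackr4 rising, Cxcr6 falling, and Ackr3 and Cxcr2 not passing. Cxcr2, the receptor of the ELR ligands, was at 0.294 to 0.523 TPM on all days (log2 slope -0.12 ± 0.40 SE, edgeR adjusted p = 0.812). The counts of Cxcr2 were not whole numbers, so part of its reads may be shared and this low level is uncertain. Of 5 genes for shedding, trimming or storage 2 rose (Adam17 and Srgn) and 0 fell, and Ctsg, the protease that trims Ppbp, had 0 counts. Srgn passed the filter largely through its later days. Over all 15659 genes tested with the straight line, 28.3% rose and 26.1% fell, with a median fitted log2 change of 0.05. The medians were -1.35 over the 2 other ligands, -0.30 over the 4 receptors and 0.51 over the 4 processing genes tested.

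Of the 21 genes on the NF-κB list 18 were tested, 4 rose and 3 fell, with a median log2 change of 0.07. Both counts are smaller shares than among all genes tested, where 28.3% rose and 26.1% fell, so the list as a whole did not stand out. Nfkbiz, a nuclear co-factor that NF-κB needs at some chemokine and cytokine genes, had its highest level on day 4. Its TPM over days 2 to 8 ran 7.23, 10.6, 9.19 and 5.50, with 2.14 to 3.21 afterwards, and fell (log2 slope -2.58 ± 0.35 SE, edgeR adjusted p = 0.000217). Tnfaip3, a feedback inhibitor, fell by 1.37 on the log2 scale (SE 0.29, edgeR adjusted p = 0.00268). Rel also fell, by 0.48 (adjusted p = 0.0262 from edgeR), a call lost without day 4, day 16 or day 18, between the early and late days, and with the spline (adjusted p = 0.0713 from edgeR). The surface receptors Tlr2 and Tlr4 rose by 4.02 and 1.53 (adjusted p = 0.000152 and 2.33e-05 from edgeR), as did the inhibitor Nfkbie by 1.38 (adjusted p = 0.00728 from edgeR). Nfkb1 rose by 0.55 (adjusted p = 0.0164 from edgeR), a call lost without day 2. Of the cytokines that induce ELR ligands, Il1b had 0 counts in all libraries, and Il1a and Tnf reached at most 0.206 and 0.422 TPM.

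For the 10 ligands themselves, 8 passed the filter on low counts and Cxcl2 and Cxcl13 did not, and no test is given since they were chosen with these levels known. The standard errors below were derived from the F statistic of the same fit. For these ligands the ratio of change to standard error is thus no support for a change. As a description, the log2 differences that the fitted line makes between days 2 and 18 were -10.16 for Ppbp (standard error 1.33), -2.86 for Cxcl5 (0.42), -2.84 for Cxcl1 (0.95), -3.21 for Cxcl10 (1.48), -1.03 for Cxcl14 (0.41), 3.00 for Cxcl16 (0.26), 4.66 for Cxcl12 (0.65) and 5.31 for Pf4 (0.74). A straight line misses courses that bend, and these are not observed differences between the 2 days. The line of Ppbp falls further than its TPM did, 40.1 on day 2 and 0.515 on day 18. That of Cxcl10 falls, although its TPM was 1.95 on day 2 and 3.03 on day 18. Between the means of days 2 to 6 and days 14 to 18, in TPM, Cxcl12 was 10.8-fold, Cxcl16 5.31-fold and Pf4 26.1-fold higher late, and Cxcl5 4.76-fold, Cxcl1 4.98-fold, Cxcl10 4.29-fold and Cxcl14 1.77-fold higher early. The early and late days of Cxcl10 overlapped, and without day 6 its log2 change went from -2.05 to -1.27. That of Cxcl12 went from 3.43 to 4.05 without day 6.

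The genes most like Ppbp over the 9 days, by Pearson's r of log2(TPM + 1) among 3886 genes with a mean of at least 5 TPM and a range of at least 1 log2 unit, were Inhbb (r = 0.996), B3galnt2 (0.994), Steap2 (0.990), Scx (0.989) and Alas1 (0.989). Inhbb, a subunit of activin B, had 42.8, 55.9 and 2.29 TPM on days 2, 4 and 18. Scx, a transcription factor of tendon progenitors, had 9.69, 13.0 and 2.51 TPM on those days. The genes most like Cxcl12 were Cdk14 (r = 0.999), Glt8d2 (0.998), Eya4 (0.998), Dcn (0.998) and Mfap2 (0.998). Dcn, the collagen-binding proteoglycan decorin, went from 45.5 to 2652 TPM between days 2 and 18, and Mfap2, a microfibril protein, from 9.30 to 390 TPM. The points of these correlations are the same 9 libraries, whose depths differ, and the values are descriptive.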

How the data were processed

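Profiles of 9 days (27 in all, 3 per day) were used, with groups and days taken from the sample labels. The authors amplified the complementary DNA (NuGEN Ovation), aligned reads with Bowtie 0.12.9 to the NCBIm37 transcriptome, and ran RSEM (1.2.8 in the submitters' processing notes) with a mean fragment length of 280 bases. The authors deposited an estimated count per gene, for which RSEM divides reads that match several genes among them. The TPM deposited by the authors are scaled to a fixed sum per profile and were divided here by the 75th percentile of the values above 0 and multiplied by the mean percentile (factors 0.933 to 1.11). The FPKM deposited by the authors served as an alternative.

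Counts of the 3 profiles of a day were summed, rounded and fitted with a straight line in day (edgeR 4.0.16 in R 4.3.3, upper-quartile scaling, quasi-likelihood test, Benjamini-Hochberg adjusted p under 0.05 over 15659 genes), and the fit was tested on simulated data. Genes with low counts were removed by filterByExpr, which asked for a minimum count of 10, scaled to library depth, in several libraries. The fitted change covers day 2 to day 18. Profile totals were 7331125 to 20888956 counts. Intervals were Wilson or exact at 95%, computed in Python 3.11.15 with scipy 1.17.1, and the limit for 0 counts was 3 counts of the pooled total. Gene positions came from the NCBIM37 annotation. Promoter windows (250 bases before to 50 after a start) came from RefSeq GRCm38.p6, and matches to κB, interferon-response and TATA letters were searched on both strands. The motif letters were settled after the sequences had been seen.

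The members and all lists were chosen with earlier results of these data known. The lists were other CXC ligands, receptors, ligand processing, NF-κB, interferon, and markers of osteoblasts, macrophages, megakaryocytes, neutrophils, endothelial cells, adipocytes and lymphocytes. Genes named outside the members were those of the lists that passed the threshold, reached 10 TPM on any day or had 0 counts throughout, and the 5 genes most like Ppbp and like the most abundant ligand. Cxcr4, Cxcr3, Cxcr5, Cxcr2, Dpp4, Il1a, Tnf, Ifng, Ifnb1, Nfe2, Gp1bb, Vwf, Itga2b, Cd14, Cxcl11, Cxcl15 and Cxcl17 fall outside this rule and were named after their values were seen. Of the endothelial markers (6 genes, 3 tested) 2 rose and 1 fell, of the adipocyte markers (5 genes) 5 rose, and of the lymphocyte markers 1 was tested and did not pass. Among all genes tested 28.3% rose and 26.1% fell. Alternatives were TMM factors, DESeq2 1.42.0, no filter, 27 separate profiles (with the replicate block and without it), leaving out each replicate or day, a natural spline with 3 degrees of freedom, early against late days, other units and another pseudocount. Some genes of the lists are counted but not reported here by name.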

Additional observations from a re-analysis of the deposited data

How the results depend on the processing

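The 8510 genes that followed day numbered 7187 to 8447 with a replicate or day left out. The 6 pathway genes outside the ligands numbered 5 to 6, with 5 without day 2 or day 6, where Cxcl3 no longer passed the filter on low counts. The 21 marker genes numbered 20 to 23. The 9 genes of the NF-κB and interferon lists numbered 8 to 11. They became 22 with the natural spline, which tests any change. With the 27 profiles as separate samples they became 17, and 16 with the replicate block. The replicate numbers did not pair the profiles (mean correlation of deviations 0.00600 for the same number, -0.0030 for different ones), and with the replicate block 10881 genes followed day, against 10754 without it. The log2 change of the summed ligand TPM from days 2 to 6 to days 14 to 18 was 1.98. It was 1.87 with TPM and 1.84 with FPKM as deposited, 2.33 with CPM, and 1.77 to 2.16 with a replicate or day left out. Over all tested genes the median of that change was 0.09, -0.02, -0.05 and 0.00 on these 4 scales. Of 120 recomputed changes of single ligands 40 moved by more than the spread of the profiles and 0 reversed. The 20 counts of Cxcl2 and 31 of Cxcl13 over all days limit what can be said of both.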
